A study of Homo sapiens with 12 samples.

Results

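The comparison described here sets BJ cells carrying the T350A form of EZH2 against BJ cells carrying wild-type EZH2, and it was chosen by the array titles alone. It uses 6 of the 12 arrays of the series, 3 for each form of EZH2, and asks what the loss of 1 threonine in EZH2 changes in gene expression. BJ is an established line of human fibroblasts. All cells were exposed to lentivirus for 72 h and then to siRNA for 60 h. Both groups compared received an siRNA against EZH2 together with a virus whose EZH2 escapes that siRNA, either wild-type (EZH2 re-expression) or with alanine in place of the threonine (T350A re-expression). The remaining 6 arrays came from cells given the virus labelled LV-C with a control siRNA (si-Control, 3 arrays) or with the siRNA against EZH2 (si-EZH2, 3 arrays). Their levels are given beside those of the compared groups. The cells of both re-expression groups thus kept whatever endogenous EZH2 the siRNA left, and the promoter driving the viral EZH2 is not given in the sources used here. Whether the replicates are separate cultures is not given in the labels, and the p-values then reflect the spread among these arrays, which may be technical.

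EZH2 is the catalytic subunit of Polycomb repressive complex 2 (PRC2), which keeps developmental genes silent by methylating a lysine in the tail of a core histone. The cyclin-dependent kinases CDK1 and CDK2, which drive cells through DNA replication and into mitosis, are known to phosphorylate EZH2 at the threonine replaced in T350A. In fibroblasts EZH2 is abundant while cells divide and declines as they age in culture. Fibroblasts produce collagens, other matrix proteins and the proteases that cut them, and under stress they secrete cytokines and chemokines.

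Of 47231 probes on each array, between 20658 and 21910 were detected, and all 12 arrays lay on 1 chip. Probes detected on at least 3 of the 12 arrays (detection p under 0.05) were tested, which kept 23313 probes covering 12640 named genes. Levels below are log2 intensities after background correction and quantile normalization, differences are T350A minus EZH2 re-expression on that log2 scale, and errors on differences are standard errors (SE) of the limma fit. A level of 1 probe is never set against that of another probe. With 3 arrays a group, the median 95% interval of a difference reached 0.264 to each side. All 11 fibroblast markers tested, among them COL1A1, VIM and THY1, were detected on all 6 compared arrays. Of 8 endothelial markers 7, among them PECAM1, CDH5, VWF and KDR, were detected on none of the 6, and TEK was detected on all 6. Of the leukocyte markers, PTPRC, CD3D, CD3E, LYZ and NKG7 were detected on none, CD68 on all 6, and MS4A1, CSF1R and ITGAM on some. Of the melanocyte markers, TYR, TYRP1, MLANA and SOX10 were detected on none and MITF and PMEL on all 6. Of the epithelial markers, CDH1, KRT5 and KRT14 were detected on none of them, EPCAM, KRT8, KRT18, KRT19 and DSP on all 6, and KRT15 on some.

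EZH2 transcript, the manipulated gene, was lower with T350A than with wild-type EZH2 on 2 of its 3 probes, and it fell on 1 by the test. Probe ILMN_2364529 read 8.50, 8.46 and 8.47 with EZH2 and 7.20, 7.04 and 7.32 with T350A. In si-Control the same probe read 5.86, 5.42 and 5.62, and it was detected on 0 of the 3 si-EZH2 arrays, so both viral forms lay far above the endogenous level. Its difference between the forms was -1.29 ± 0.12 (SE), a 2.45-fold lower level with T350A (limma, adjusted p = 0.000254). Probe ILMN_1652913 read 8.46, 8.62 and 8.57 with EZH2 against 7.98, 8.06 and 7.93 with T350A. Here the groups again did not overlap, but the difference was smaller, -0.56 ± 0.13, and did not pass the test (adjusted p = 0.211). Probe ILMN_1708105 behaved differently from both. Its si-Control arrays read 6.69, 6.96 and 6.72, its EZH2 arrays 5.86, 5.99 and 5.68, and its T350A arrays 5.90, 6.14 and 5.70. Its si-EZH2 arrays read 5.559, 5.761 and 5.765. Both re-expression groups thus lay below si-Control, overlapped si-EZH2 and overlapped each other (difference 0.07 ± 0.13, adjusted p = 0.919). Every difference reported below was therefore measured between cells that differed in the threonine and in the level of EZH2 transcript, and the part of each cannot be told apart.

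**Figure D1:**
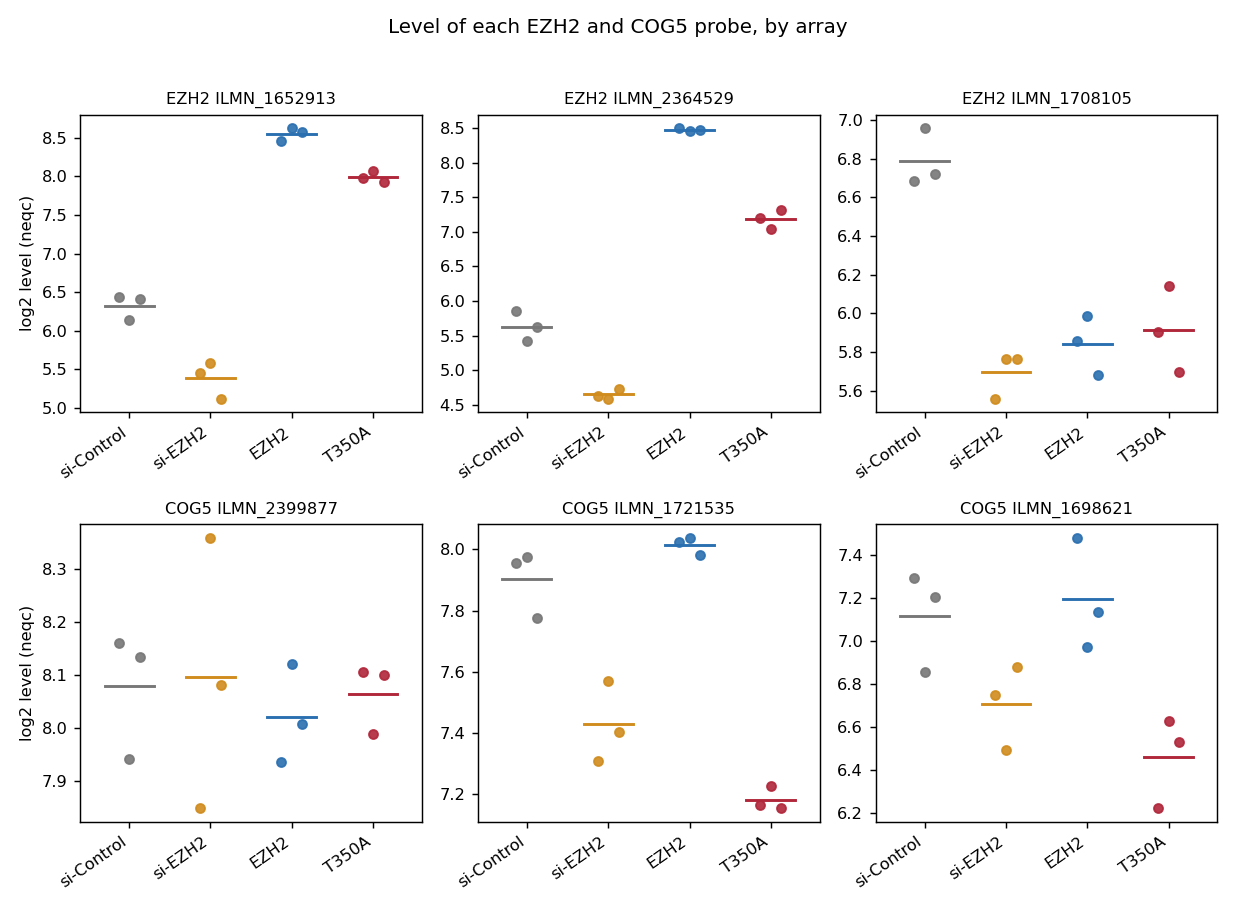
Log2 level of the 3 EZH2 probes (top) and the 3 COG5 probes (bottom) on each of the 12 arrays, with 3 arrays (points) and their mean (line) for each group; the vertical axes differ between panels. On EZH2 probe ILMN_2364529 the T350A arrays sit between 7.04 and 7.32, below all EZH2 arrays and above all si-Control arrays, and on COG5 probe ILMN_1721535 they are the lowest of all 12.

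Across the array few differences between the forms of EZH2 passed the test. Of 23313 probes, 2 were called at an adjusted p under 0.05 (0.00858%), the EZH2 probe above and a probe of COG5, while 2050 probes (8.79%) had an unadjusted p under 0.05. With 1 probe per gene, the brightest, 6379 genes were lower and 6261 higher with T350A, the median difference was -0.0017, and the median size of a difference was 0.0966. Only 1 probe, that of EZH2, differed by 1 or more. The count of called probes ran from 1 to 50 over the alternative settings. The 3 T350A values lay all below the 3 EZH2 values in 996 genes (7.88%) and all above them in 982 genes (7.77%). These shares are the background against which the gene groups below are read. The gene lists were chosen with earlier results of these data known. A share above this background is therefore no independent support for a list.

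COG5, a subunit of the complex that tethers vesicles to the Golgi, was the only gene other than EZH2 with a called probe. Its probe ILMN_1721535 read 8.03, 8.04 and 7.98 with EZH2 and 7.17, 7.23 and 7.16 with T350A. The si-Control arrays read 7.96, 7.98 and 7.78 and those of si-EZH2 read 7.31, 7.57 and 7.41, so the T350A arrays were the lowest of the 12. The level fell by 0.83 ± 0.10 on the log2 scale, which is 1.78-fold (limma, adjusted p = 0.00527). Leaving out EZH2 re-expression replicate 1, T350A replicate 1 or T350A replicate 3 ended this call (adjusted p = 0.0532, 0.0508 and 0.0509), with the difference at -0.83, -0.82 and -0.82. The other COG5 probes disagreed. ILMN_1698621 was lower with T350A by 0.74 ± 0.16 without passing (adjusted p = 0.194), and the brightest, ILMN_2399877, differed by 0.04 ± 0.12 with overlapping groups (adjusted p = 0.95). The other 7 subunits of the complex, all tested, had differences between -0.06 (COG3) and 0.16 (COG7), and their groups all overlapped.

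Ranked by size over the brightest probe of each gene, the 12 genes furthest above zero were CCL7 (0.73), COL15A1 (0.64), TNFSF18 (0.64), CXCL8 (0.62), TM6SF1 (0.62), MMP7 (0.60), GPM6B (0.59), HSD17B2 (0.58), PAK6-AS1 (0.56), ITGA11 (0.56), TRIM31 (0.55) and ZNF471 (0.54). CCL7 and CXCL8 are chemokines, COL15A1 is a basement membrane collagen, TNFSF18 is a T cell costimulator related to tumour necrosis factor, MMP7 is a matrix protease, and ITGA11 is a chain of a collagen receptor. HSD17B2 oxidizes sex steroids. The 12 furthest below zero were FPGS (-0.72), RAB27B (-0.68), NTNG1 (-0.66), PRR11 (-0.65), TK1 (-0.65), OAZ2 (-0.64), YKT6 (-0.63), CA12 (-0.62), MMP3 (-0.62), OR10H4 (-0.61), CREB3L4 (-0.61) and CEP55 (-0.61). Among these, FPGS retains folates in cells, RAB27B acts in exocytosis, YKT6 is a SNARE of vesicle fusion, OAZ2 restrains polyamine synthesis and CA12 is a carbonic anhydrase of the cell surface. None of the 24 passed the test (CXCL8 and MMP3 did under 7 of 24 alternatives each), and the ranking required groups that did not overlap, so their separation is no result of its own.

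The 6 of these genes with the smallest adjusted p, 0.0637 to 0.0918, were MMP3, CXCL8, RAB27B, TK1, COL15A1 and YKT6. RAB27B read 8.80, 9.10 and 9.09 with EZH2 and 8.47, 8.19 and 8.30 with T350A, and its si-Control arrays (8.12 to 8.15) were lower still (difference -0.68 ± 0.11, adjusted p = 0.0637). A second RAB27B probe, ILMN_2129649, differed by 0.00 ± 0.16, so the probes of this gene disagree. YKT6 read 6.024, 6.003 and 6.158 with EZH2 and 5.475, 5.527 and 5.284 with T350A, where all 3 arrays were below every array of the other 3 groups (difference -0.63 ± 0.11, adjusted p = 0.0918). FPGS was the furthest below zero, but its second probe, ILMN_1713948, was higher with T350A by 0.24 ± 0.13, and the second ZNF471 probe, ILMN_1786079, differed by -0.01 ± 0.22. OR10H4 was detected on 0 of the 3 T350A arrays, and its level with EZH2 was at least 1.19-fold higher than the T350A arrays' detection limit.

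**Figure D2:**
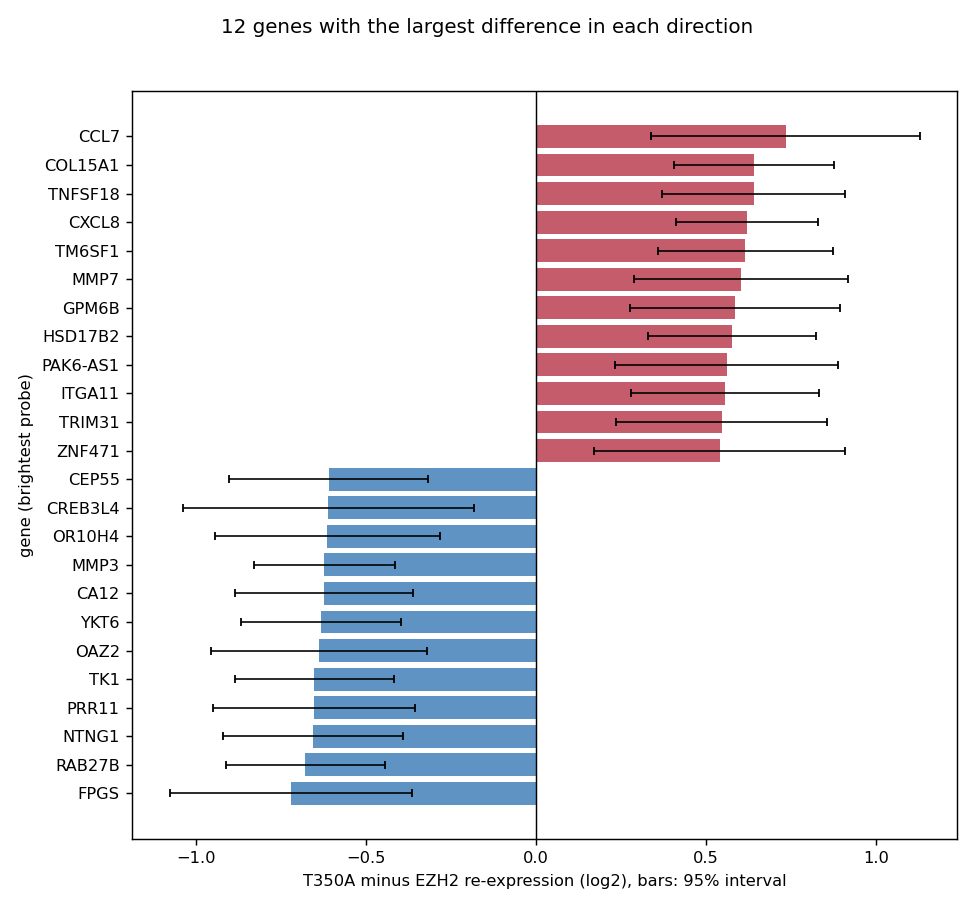
Difference T350A minus EZH2 re-expression (log2, horizontal axis) for the 12 genes furthest in each direction, 1 brightest probe per gene, with bars from 0 and lines for the 95% interval of the limma fit. The values run from -0.72 (FPGS) to 0.73 (CCL7), and the intervals are not adjusted for the number of genes tested.

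Genes of the G2 phase and of mitosis were lower with T350A than with EZH2 as a group, by a small amount each. Of 77 listed genes 74 were tested, and 64 of them were lower and 10 higher, with a median difference of -0.23 against -0.0017 over all genes. In 27 (36.5%) all 3 T350A arrays were below all 3 EZH2 arrays, against 7.88% of all genes, and in 1 (CKS2, a small partner of cyclin-dependent kinases) all were above. None passed the test over all probes (4 or 5 did under 4 alternative settings). Of the 74, 28 had an unadjusted p under 0.05, of which 27 were lower, against 8.79% of all probes in either direction. MKI67, NCAPH and CENPU were not tested, because too few arrays detected them. In a bulk sample, fewer cells in G2 or mitosis and less of these RNAs per cell cannot be told apart. Summed over the list on the linear scale, the level was 20881, 21003 and 20802 with EZH2 and 18462, 19461 and 19602 with T350A. The si-Control arrays (19268 to 19486) and the si-EZH2 arrays (17138 to 19497) overlapped the T350A range, and the EZH2 arrays were the highest 3 of the 12. Bright members weigh most in this sum. By the list median of each gene's level minus its si-Control mean, the T350A arrays read -0.08, -0.10 and -0.08. On that measure they lay below si-Control (-0.02 to 0.03) and EZH2 (0.11 to 0.14), while si-EZH2 (-0.29 to -0.06) overlapped them.

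Among the cyclins and regulators of CDK1, 8 of 11 were lower. CCNB2, a mitotic cyclin, read 8.48, 8.36 and 8.25 with EZH2 and 7.87, 7.75 and 7.82 with T350A (difference -0.55 ± 0.12, adjusted p = 0.194). The groups did not overlap, and si-Control (7.94 to 8.08) lay between them. CCNA2 (-0.34) and CDK1 itself (-0.15) also had every T350A array below every EZH2 array, CDC20, the activator of the anaphase ubiquitin ligase, was lower by 0.35, and CCNB1 was lower by 0.35 with overlapping groups. Of the mitotic kinases 8 of 9 were lower. NEK2, which acts at the centrosome, read 6.23, 6.40 and 6.37 with EZH2 and 5.83, 5.87 and 5.80 with T350A (difference -0.50 ± 0.12, adjusted p = 0.218), though its second probe, ILMN_1653822, differed by -0.03 ± 0.17. PLK1 (-0.45), AURKB (-0.35), AURKA (-0.32) and TTK (-0.18) did not overlap either, while BUB1B was higher by 0.06.

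All 11 kinesins, the motors of the spindle, had lower means with T350A. In only 1 of the 11, KIF20A, were the T350A arrays all below, against 7.88% of all genes. KIF20A read 8.10, 8.30 and 8.44 with EZH2 and 7.62, 7.69 and 7.83 with T350A (difference -0.57 ± 0.13, adjusted p = 0.218). The other 10 lay between -0.34 (KIF2C) and -0.04 (KIF15). Centromere and kinetochore genes had the lowest median of the roles, -0.35 over 11 genes of which 10 were lower. CENPA, the histone variant that marks centromeres, read 6.68, 6.56 and 6.38 with EZH2 and 5.90, 6.25 and 5.75 with T350A (difference -0.57 ± 0.14, adjusted p = 0.218), while its second probe, ILMN_2392472, differed by -0.04 ± 0.13. SPC24 (-0.51 ± 0.13) and CENPF (-0.37 ± 0.10), both of the outer kinetochore, and CENPM (-0.39) had groups that did not overlap, and NUF2 was higher by 0.06.

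Genes of the spindle and of cytokinesis were lower in 15 of 16. In 8 of the 16 the T350A arrays lay all below, against 7.88% of all genes. ANLN, a scaffold of the contractile ring, read 7.31, 7.22 and 7.28 with EZH2 and 6.73, 6.75 and 6.69 with T350A, a difference of -0.55 ± 0.12 with SDs of 0.0485 and 0.0343 within the groups (adjusted p = 0.194). CEP55, needed for the final cut between daughter cells, read 7.54, 7.59 and 7.49 with EZH2 and 6.90, 6.85 and 7.04 with T350A (difference -0.61 ± 0.14, adjusted p = 0.218). DLGAP5, a spindle assembly factor, was lower by 0.55 ± 0.15, with its second probe also lower, by 0.37 ± 0.16. ARHGAP11A was detected on 0 of the 3 T350A arrays and was at least 1.23-fold higher with EZH2. In the group of chromosome condensation and sister chromatid release 11 of 13 were lower, among them PTTG1 (securin), which read 10.05, 10.11 and 10.00 with EZH2 and 9.62, 9.51 and 9.56 with T350A (difference -0.49 ± 0.11, adjusted p = 0.218), and UBE2C, a ubiquitin-conjugating enzyme of anaphase (-0.32 ± 0.093). FOXM1 and MYBL2, transcription factors known to drive these genes, differed by 0.03 and 0.24 with overlapping groups.

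**Figure D3:**
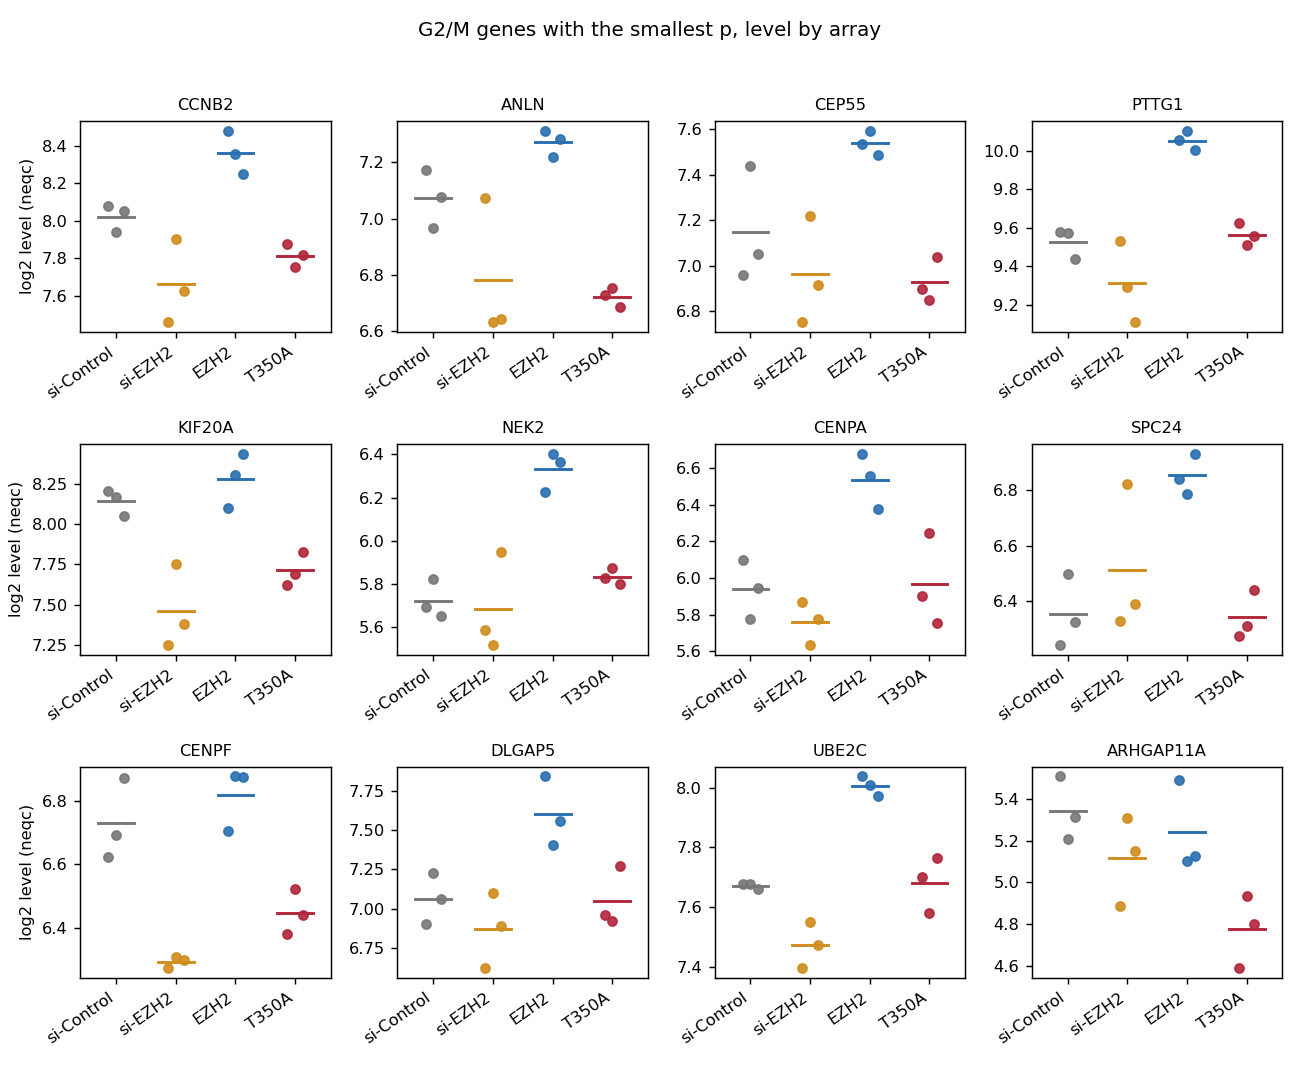
Log2 level of the 12 G2/M genes with the smallest p on each of the 12 arrays, 3 per group, with a line for each group mean; the vertical axes differ between panels. In every panel the 3 T350A points lie below the 3 EZH2 points, for KIF20A at 7.62 to 7.83 against 8.10 to 8.44.

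Promoters of such genes often carry the cell cycle homology region (CHR), bound by the DREAM and MuvB complexes, and CCAAT boxes, bound by NF-Y. The motif letters and the choice of 1 window per gene were settled after values had been seen. In RefSeq windows of build GRCh38.p14, from 250 bases before to 50 after a gene's start, 64 of the 74 tested genes had a window. The first listed window of each gene was searched on both strands. The CHR letters, TTTGAA or TTCGAA, were in 48 of the 64 (75%), against 16.6% of 27305 genes, and CCAAT was in 46 (71.9%), against 35.7%. Over every listed window, the CHR shares were 68.8% of 80 and 16.4% of 35116, and those of CCAAT were 68.8% and 34.6%. Within the list, having the CHR letters did not go with a larger difference. The 48 genes with them had a median of -0.18 (29.2% all below), and the 16 without had -0.35 (50% all below). Outside the list, the median was -0.01 over 1136 tested genes with the letters (8.19% all below). It was -0.0011 over 8904 without (7.72% all below).

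The windows of the 4 genes with the smallest p among those that hold the CHR are shown as examples of where the letters lie. They were chosen for holding the CHR, and PTTG1, KIF20A and NEK2 had a smaller p than CENPA. Each runs from 130 bases before the start to 30 after, 5′ to 3′ on the gene's strand, which is the plus strand for all 4, with the letters of the CHR and of CCAAT, on either strand, in capitals. CCNB2 lies at chr15:59105016-59105175, ANLN at chr7:36389732-36389891, CEP55 at chr10:93496482-93496641 and CENPA at chr2:26785926-26786085, all in GRCh38.p14. CCNB2 and CENPA hold TTTGAA 29 and 18 bases before the start, and ANLN holds the letters side by side on both strands. A match is a description of these letters and not a binding site.
CCNB2: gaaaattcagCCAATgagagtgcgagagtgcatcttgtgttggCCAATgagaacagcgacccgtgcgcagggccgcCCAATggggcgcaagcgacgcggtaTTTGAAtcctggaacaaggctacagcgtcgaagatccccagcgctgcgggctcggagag
ANLN: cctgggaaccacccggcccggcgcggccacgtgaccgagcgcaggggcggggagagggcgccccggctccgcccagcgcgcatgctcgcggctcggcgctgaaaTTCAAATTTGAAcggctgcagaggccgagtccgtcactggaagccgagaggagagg
CEP55: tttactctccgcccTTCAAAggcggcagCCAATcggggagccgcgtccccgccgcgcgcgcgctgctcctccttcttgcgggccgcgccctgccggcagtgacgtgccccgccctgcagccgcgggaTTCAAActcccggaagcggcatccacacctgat
CENPA: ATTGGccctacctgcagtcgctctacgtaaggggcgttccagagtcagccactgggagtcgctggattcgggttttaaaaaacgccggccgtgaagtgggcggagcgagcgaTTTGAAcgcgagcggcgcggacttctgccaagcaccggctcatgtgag

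DNA replication genes were lower more often than higher, with a smaller median. Of 58 listed genes 48 were tested. The median was -0.12, 38 were lower and 10 higher, and in 6 (12.5%, against 7.88% of all genes) the T350A arrays lay all below the EZH2 arrays. TK1, the thymidine kinase that supplies nucleotides in S phase, read 8.92, 8.90 and 8.92 with EZH2 and 8.19, 8.41 and 8.18 with T350A. Its T350A arrays lay within the si-Control range (8.05 to 8.33) on 2 of 3, and the difference of -0.65 ± 0.11 did not pass (adjusted p = 0.0815). CHAF1B, a chaperone that places histones on new DNA, read 5.89, 5.97 and 5.96 with EZH2 and 5.24, 5.61 and 5.57 with T350A (-0.47 ± 0.11, adjusted p = 0.218). LIG1 (-0.55 ± 0.19), CCNE1 (-0.36 ± 0.15), MCM4 (-0.14) and RPA3 (-0.13) were the others without overlap. CHR letters were in 3 of 43 replication gene windows.

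Of the kinases that phosphorylate the replaced threonine and their cyclins, 5 of 6 were tested and 4 were lower, with a median of -0.34. Of these, 3 (CDK1, CCNA2 and CCNB1) are also G2/M genes. CDK2 went the other way, with every T350A array above every EZH2 array (0.17 ± 0.10, adjusted p = 0.695). The 13 tested CDK inhibitors and members of the RB family and its kinases had a median of -0.02 and no gene without overlap. CDKN1A, the inhibitor induced by p53, differed by -0.18 ± 0.11, and CDKN2A, a gene known to be silenced by PRC2, by 0.09 ± 0.12. The p53 target genes as a list had a median of -0.08, with 19 of 27 lower. In 5 (18.5%, against 7.88% of all genes) the T350A arrays lay all below, among them TP53I3 (-0.25), DDB2 (-0.23) and SESN1 (-0.21).

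Tested genes from lists of genes that PRC2 is known to silence differed by small amounts. More of them were higher than lower in T350A outside the HOX genes. Testing required detection on at least 3 of the 12 arrays. The values therefore cover members with a detected transcript, and members without one were left out. Of 60 developmental regulators 29 were tested, 22 were higher and 7 lower, the median was 0.08 (0.03 to 0.10 over the alternatives), and in 4 (13.8%, against 7.77% of all genes) the T350A arrays were all above. These were LHX2 (0.28 ± 0.11), MSX2 (0.21 ± 0.13), IRX5 (0.17 ± 0.094) and PRRX1 (0.16 ± 0.12), which are homeobox transcription factors. Of 20 tested genes reported as repressed by EZH2, 13 were higher with a median of 0.06 (0.0013 to 0.09 over the alternatives), and 3 (15%) lay all above. IGFBP3, which binds insulin-like growth factors, read 12.60, 12.44 and 12.56 with EZH2 and 13.01, 12.93 and 12.93 with T350A, with si-Control at 13.10 to 13.56 (0.43 ± 0.12, adjusted p = 0.301), and its second probe was higher by 0.47 ± 0.11. LATS2, a kinase of the Hippo pathway (0.36 ± 0.11), and the ligand WNT5A (0.18 ± 0.098) were the other 2. Of 38 HOX genes 13 were tested, 7 lower and 6 higher, with a median of -0.0048. HOXD3 (0.29 ± 0.14) and HOXC4 (0.21 ± 0.13) lay all above (15.4%, against 7.77% of all genes). HOXC6 (-0.16 ± 0.11) lay all below (7.69%, against 7.88%). None of these genes passed the test.

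Differences of the other PRC2 subunits were small. SUZ12, the scaffold, differed by 0.04 ± 0.12, EED, which reads the histone mark, by -0.20 ± 0.12, EZH1, the related methyltransferase, by 0.01 ± 0.19, and the accessory subunit JARID2 by -0.07 ± 0.11, all with overlapping groups. RBBP4, a histone chaperone subunit, was higher on every T350A array (0.22 ± 0.11, adjusted p = 0.62). The 12 tested PRC1 subunits had a median of 0.03, with PHC1 lower (-0.18) and PCGF2 (0.13) and PHC2 (0.12) higher without overlap.

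**Figure D4:**
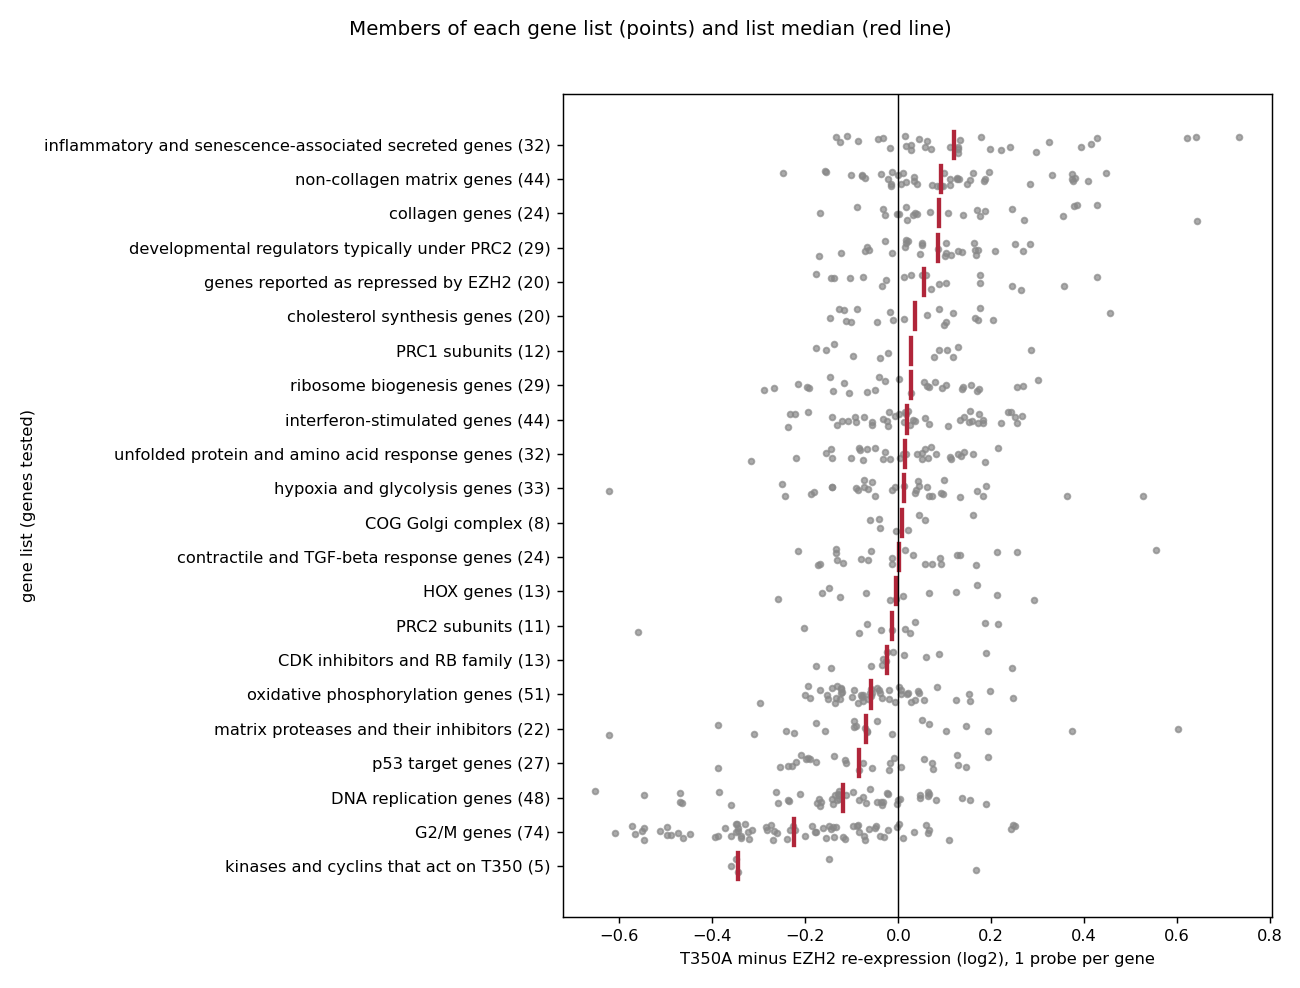
Difference T350A minus EZH2 re-expression (log2, horizontal axis) of every tested member (grey points, 1 probe per gene) of 22 gene lists, with the number tested in brackets and the list median as a red line. The medians run from -0.34 for the 5 kinases and cyclins and -0.23 for the 74 G2/M genes to 0.12 for the 32 secreted inflammatory genes, and most lists spread on both sides of 0.

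Secreted inflammatory and senescence-associated genes were higher with T350A more often than lower. Of 40 listed genes 32 were tested, 25 were higher and 7 lower, and the median was 0.12. In 12 (37.5%, against 7.77% of all genes) every T350A array was above every EZH2 array, in 0 was every one below, and none passed the test. CXCL8, the chemokine interleukin 8 that draws neutrophils, read 10.32, 10.37 and 10.41 with EZH2 and 10.92, 10.92 and 11.12 with T350A. The si-Control arrays (9.84 to 10.03) were lower than both and the si-EZH2 arrays (11.76 to 11.78) higher than both. The difference of 0.62 ± 0.098 is 1.54-fold (adjusted p = 0.0637), and a second probe, ILMN_1666733, gave 0.59 ± 0.13. CCL7, a chemokine for monocytes, read 5.76, 6.02 and 5.64 with EZH2 and 6.95, 6.39 and 6.28 with T350A, a wider spread (0.73 ± 0.19, adjusted p = 0.254). TNFSF18 read 5.78, 5.60 and 6.08 with EZH2 and 6.41, 6.42 and 6.55 with T350A, with si-EZH2 at 7.02 to 7.11 (0.64 ± 0.13, adjusted p = 0.157). The others without overlap were IGFBP3 (0.43), IGFBP2 (0.42), IL24 (0.39), TNFAIP6 (0.32), HAS2 (0.30), CXCL2 (0.24), CCL2 (0.22), IGFBP7 (0.20) and IL1B (0.13).

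The CXCL8 promoter is shown because its window holds a kappaB motif, the site read by NF-kappaB, and this gene had the smallest p of the secreted genes. It lies at chr4:73740439-73740598 of GRCh38.p14, plus strand, from 130 bases before the start to 30 after, with GGAATTTCC in capitals 91 bases before the start. The letters searched, GGG and TTCC with 3 free bases between them or GGAATTTCC, on either strand and counted once where they overlap, were in 11 of 25 windows of the secreted genes (44%), against 6.7% of 27305 genes. Over every listed window the shares were 37.9% of 29 and 6.74% of 35116. The letters, which include the stretch found in CXCL8, and the choice of window were settled after values had been seen. The same letters were in 4 of 17 windows of the collagen genes (23.5%). They were in 4 of 64 windows of the G2/M genes (6.25%) and 3 of 43 of the replication genes (6.98%). Whether secreted genes with the letters differed more between the forms of EZH2 than those without was not tested.
CXCL8: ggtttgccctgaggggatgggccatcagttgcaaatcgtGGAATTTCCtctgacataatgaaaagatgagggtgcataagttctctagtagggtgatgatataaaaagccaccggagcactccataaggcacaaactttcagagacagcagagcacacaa

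Collagens and other matrix genes were also higher with T350A more often than lower. Of 24 tested collagen genes 19 were higher and 5 lower (median 0.09), and 8 (33.3%, against 7.77%) lay all above. Of the 24, 7 were higher at an unadjusted p under 0.05 and 0 lower, against 8.79% of all probes in either direction. COL15A1 read 10.40, 10.38 and 10.45 with EZH2 and 10.91, 11.23 and 11.02 with T350A, with si-Control at 10.87 to 11.09, so that the EZH2 arrays were the lowest of the 12 (0.64 ± 0.11, adjusted p = 0.0918). COL5A3 (0.43 ± 0.12), COL12A1 (0.38 ± 0.10), COL6A1 (0.38 ± 0.12), COL18A1 (0.35 ± 0.10), COL6A3 (0.27), COL7A1 (0.24) and COL4A1 (0.18) followed, and COL13A1 (-0.17) was the 1 collagen all below. A second, dimmer COL12A1 probe, ILMN_1741695, differed by -0.19 ± 0.17 with overlapping groups. Of 44 other matrix genes 31 were higher and 13 lower (median 0.09), and 11 (25%) lay all above, led by the collagen-binding proteoglycan FMOD (8.34, 8.40 and 8.47 with EZH2, 8.95, 8.75 and 8.84 with T350A, 0.45 ± 0.11, adjusted p = 0.22), LAMA2 (0.41), VASN (0.38), TNC (0.38) and PRELP (0.37). PLOD2, which modifies collagen lysines (-0.25), and FBN1, a fibrillin (-0.16), lay all below.

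Proteases of the matrix differed in both directions. MMP3, a protease that cuts many matrix proteins, read 13.84, 13.78 and 13.87 with EZH2 and 13.09, 13.33 and 13.20 with T350A, where the T350A arrays overlapped si-EZH2 (13.07 to 13.13) and si-Control lay at 11.73 to 11.91. Its difference of -0.62 ± 0.098 is 1.54-fold lower and did not pass (adjusted p = 0.0637). MMP10 (-0.39 ± 0.19), TIMP4 (-0.31 ± 0.11), PLAU (-0.24 ± 0.11) and ADAMTS1 (-0.23 ± 0.10) were lower too, and MMP7 (0.60 ± 0.15), MMP19 (0.37 ± 0.13), MMP11 (0.19) and MMP2 (0.14) were higher. Over the 22 tested, 15 were lower, 6 (27.3%, against 7.88% of all genes) all below and 4 (18.2%, against 7.77%) all above.

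**Figure D5:**
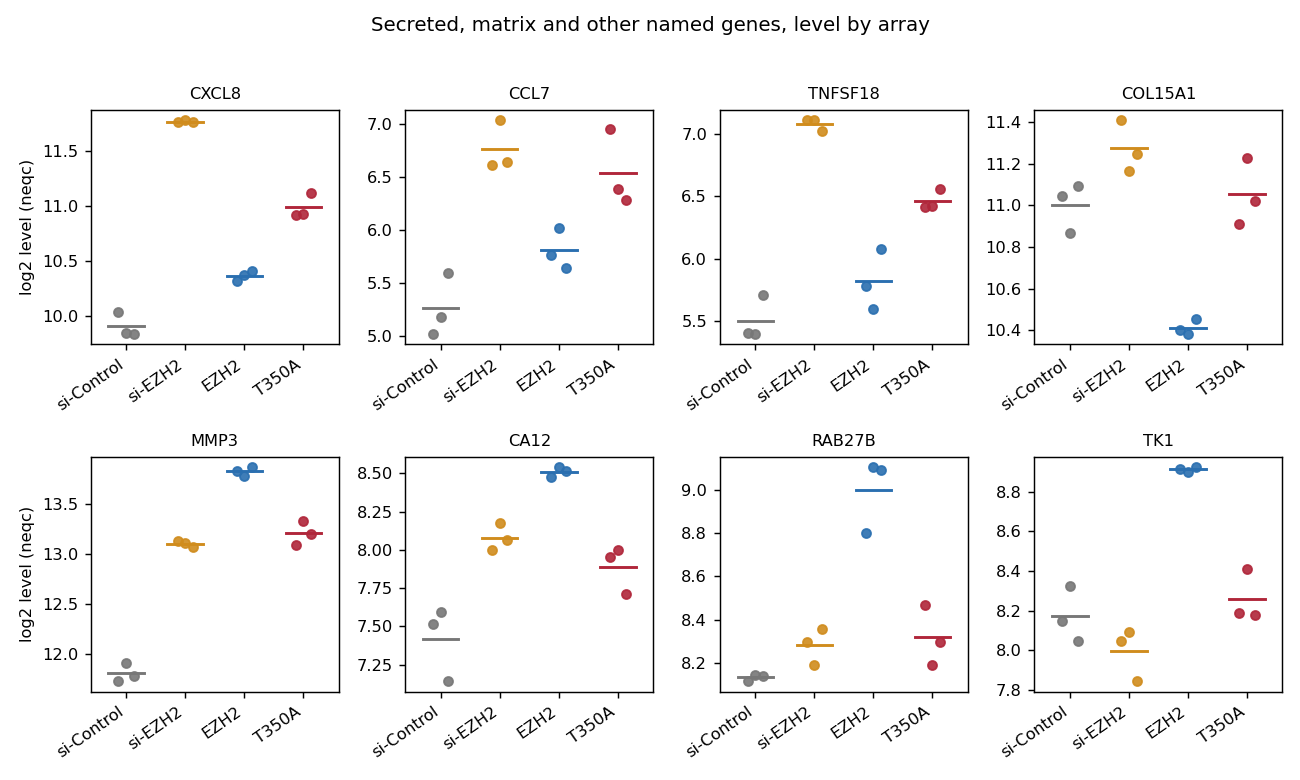
Log2 level of 8 named genes on each of the 12 arrays, 3 per group, with a line for each group mean; the vertical axes differ between panels. The T350A means of CXCL8, CCL7 and TNFSF18 lie between those of EZH2 and si-EZH2, although CCL7 overlaps si-EZH2, and no T350A point of any panel reaches the EZH2 points.

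The remaining lists had medians within 0.06 of zero. Interferon-stimulated genes had 26 of 44 higher (median 0.02). Of the 44, 7 (15.9%, against 7.77% of all genes) lay all above, such as RIGI (0.27 ± 0.13). All below were 3 (6.82%, against 7.88%), such as UBE2L6 (-0.24 ± 0.11). Hypoxia and glycolysis genes were split evenly (16 lower, 17 higher), with 6 (18.2%) all below and 4 (12.1%) all above, CA12 at -0.62 ± 0.12 and VEGFA at 0.36 ± 0.14, and ANGPTL4 varied widely (0.53 ± 0.47). Contractile and TGF-beta response genes had a median of 0.0013 with ITGA11 the furthest out (0.56 ± 0.13), and cholesterol synthesis genes had one of 0.04. Oxidative phosphorylation genes were lower in 35 of 51 (median -0.06, 13.7% all below), and ribosome biogenesis and unfolded protein response genes had medians of 0.03 and 0.01.

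Markers of other cell types were followed in the same arrays. The 6 tested epithelial markers were all lower with T350A (median -0.17). EPCAM (-0.32), KRT19 (-0.27) and KRT18 (-0.15) lay all below (50%, against 7.88% of all genes). None passed the test (limma, smallest adjusted p = 0.414). Their summed level was 5761 to 6156 on the EZH2 arrays and 4903 to 5064 on the T350A arrays, and 4753 to 5266 in si-Control. Bright members weigh most in this sum, and the highest member level was 12.28 to 12.38 with EZH2 and 12.05 to 12.09 with T350A. By the list median of each gene's level minus its si-Control mean, the groups overlapped. That measure read 0.06, -0.18 and 0.07 with EZH2 and -0.01, -0.15 and -0.37 with T350A. The part of these markers in the results above was not tested. The 11 fibroblast markers had a median of 0.04, with 7 higher.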

How the data were processed

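Total RNA of BJ cells was hybridized to 12 bead arrays, in 4 groups of 3. The deposited non-normalized table held linear intensity values of 47231 probes, with a detection p-value beside each per the file headers, and the authors' normalized table (47229 probes) was used as an alternative only; its normalization method is not given in the sources used here. All columns matched a sample by name (0 unmatched).

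Intensities were background-corrected with normexp from the detection p-values (offset 16), then quantile-normalized as log2 values by neqc (limma 3.58.1 in R 4.3.3, with jsonlite 2.0.0). The 4 group means were estimated in 1 linear model of the 12 arrays (8 residual and 7.29 prior degrees of freedom). T350A minus EZH2 re-expression was tested 2-sided with limma's moderated test and Benjamini-Hochberg adjustment over 23313 probes, of which 17151 had 1 symbol. An exact permutation test of 3 against 3 arrays cannot give a p below 0.1, so none is given. Symbols come from the platform's annotation, updated to RefSeq GRCh38.p14; the arrays' genome build is not given in the sources used here, so no probe positions are printed.

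The members, the 22 gene lists and the 5 marker lists were chosen with earlier results of these data known. Named were the called probes, the EZH2 probes, the 12 genes furthest in each direction (brightest probe, detected on 3 arrays of a group, groups not overlapping), the 12 G2/M genes and up to 4 members of each other list with the smallest p, and other members with their values. For a probe that a whole group failed to detect, the fold is a lower bound against the arrays' detection limit. The fit was tested on simulated data. Replicates 1 and 2 of each group shared 0 identical probe values, and no 2 arrays of a group correlated above 0.9949. Alternatives changed the background correction, offset, normalization, filter, moderation, array weights, samples, pairing, chip section, probe per gene and replicates.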

Additional observations from a re-analysis of the deposited data

How the results depend on the processing

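The count of called probes, 2 in the main test, was 29 without background correction (34.5% higher with T350A), 43 with an offset of 50 (41.9%), 32 on the authors' values (37.5%), 4 without a filter, 14 with detection p under 0.01 on all 12 arrays, 50 with limma-trend and robust moderation (48%) and 6 with 1 probe per gene (33.3%). Those 6 were COL15A1, CXCL8, MMP3, RAB27B, TK1 and YKT6, and neither main call was among them: the called EZH2 and COG5 probes are not the brightest of their genes, and the brightest EZH2 probe had an adjusted p of 0.127. It was 1 to 3 when each array was left out in turn, and 2 with median scaling, array weights, the 6 compared arrays alone or chip section as a covariate. Calls among the G2/M genes were 0 in the main test, 4 without background correction and on the authors' values, and 5 with an offset of 50 and with limma-trend. The causes were not tested. The COG5 probe lay between -0.8545 and -0.8193 in the leave-one-out fits. EZH2 probe ILMN_1652913 passed without background correction (-0.50), with an offset of 50 (-0.50), on the authors' values (-0.51) and with limma-trend (-0.56). EZH2 probe ILMN_1708105 turned to -0.0080 without EZH2 re-expression replicate 3 and to -0.0406 without T350A replicate 2, in a leave-one-out range of -0.0406 to 0.1815. EZH2 probe ILMN_2364529 was not tested under the stricter filter. The G2/M median was -0.17 without background correction, -0.18 with an offset of 50, -0.20 with median scaling and without a filter, -0.17 on the authors' values and -0.27 with the stricter filter, and it was -0.2360 to -0.1807 with 1 array left out and negative in all 24 alternatives. Of 35 named genes followed through the alternatives, 18 were called in at least 1, 17 in none, and 0 changed sign. Median scaling moved the median of all genes to 0.02, and list medians near 0 (PRC2, PRC1, HOX, CDK inhibitors, contractile, unfolded protein response, hypoxia, COG and ribosome biogenesis) changed sign in some alternatives. Medians that kept their sign but moved by over 1.5 times ranged from 0.03 to 0.10 for developmental regulators, 0.0013 to 0.09 for genes reported as repressed by EZH2, -0.13 to -0.07 for DNA replication, -0.11 to -0.05 for p53 targets, 0.05 to 0.15 for collagens, -0.15 to -0.03 for matrix proteases, -0.08 to -0.03 for oxidative phosphorylation, 0.01 to 0.06 for interferon-stimulated and 0.01 to 0.09 for cholesterol synthesis genes.

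The replicate numbers were not taken as pairs, since deviations of arrays with the same number correlated between -0.036 and 0.071 over 18 pairs of arrays, with 0 over 0.1, and 6 of 12 arrays correlated best with their own number. With the replicate block 2 probes were called, COG5 (-0.83 ± 0.099, adjusted p = 0.0127) and EZH2 ILMN_2364529.

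Limits are the 3 arrays per group, the lower EZH2 transcript level with T350A, and dim probes. The EZH2 arrays were at chip sections I, J and K and the T350A arrays at B, D and L.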
